A study of Mus musculus with 141 samples.

Results

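Il10, Il22 and Il24 encode 3 secreted cytokines of the interleukin-10 family, and their RNA was followed in mouse CD4 T cells over 72 h of culture. They were chosen by name and are 3 of the 46517 genes in the deposited table. Naive cells (CD4+CD25-CD44lo) were sorted from C57BL/6 spleens and lymph nodes, and every culture was stimulated through CD3 and CD28 with plate-bound antibodies. The 47 groups, of 3 libraries each, fall into 6 numbered courses that hold 1 library of each of their groups. Courses 4 to 6 received IL6 (20 ng/ml) and TGFb (1 ng/ml) with IL1b (10 ng/ml), with both IL1b and IL21 (20 ng/ml), or with IL21 alone added. Courses 1 to 3 received IL6 and TGFb, or no polarizing cytokines (labelled Th0). All were sampled at 9 times between 0.5 and 72 h, with separate naive cells at 0 h for courses 1 to 3 and for courses 4 to 6. The age of the mice, and whether cultures of a course came from the same animals, are not given in the sources used here, so p-values measure the spread between these libraries.

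IL-10, IL-22 and IL-24 signal through paired receptor chains to the transcription factor STAT3. IL-10 acts on leukocytes through Il10ra and Il10rb and restrains inflammation. IL-22 and IL-24 act mainly on epithelial cells, IL-22 through Il22ra1 with Il10rb and IL-24 through Il20rb with Il20ra or Il22ra1. Among CD4 T cells, Il22 is best known from Th17 and Th22 cells, where the ligand-activated factor Ahr promotes its expression, and Il10 in several T cell subsets depends on the factor Maf.

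The annotation places Il10 and Il24 on mouse chromosome 1, in a row with the family members Il20 and Il19 that reads Il24, Il20, Il19, Il10. It places Il22 on chromosome 10 next to Iltifb, a near-identical second copy, with Ifng as the following protein-coding gene. The sequences of Il22 and Iltifb are shown because reads that fit both cannot be assigned to one of them by sequence alone. The first 300 coding bases of each (GENCODE M21, GRCm38), with the 6 bases that differ in capitals, read 5′ to 3′ along the transcript:
Il22 coding sequence: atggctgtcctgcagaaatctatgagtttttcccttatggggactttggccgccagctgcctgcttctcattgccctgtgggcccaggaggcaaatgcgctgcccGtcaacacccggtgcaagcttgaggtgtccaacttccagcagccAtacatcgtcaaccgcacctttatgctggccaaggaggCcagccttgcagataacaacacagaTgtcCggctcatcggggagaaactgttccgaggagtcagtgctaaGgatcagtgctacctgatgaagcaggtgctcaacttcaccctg
Iltifb coding sequence: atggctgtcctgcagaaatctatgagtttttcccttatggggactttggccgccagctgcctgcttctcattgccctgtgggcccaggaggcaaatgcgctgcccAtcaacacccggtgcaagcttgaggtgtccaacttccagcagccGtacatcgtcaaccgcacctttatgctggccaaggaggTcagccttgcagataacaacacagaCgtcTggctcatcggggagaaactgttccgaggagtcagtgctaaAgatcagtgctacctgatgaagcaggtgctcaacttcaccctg
Over the whole coding sequence 9 of 540 bases differed (98.3% identity), and over the transcripts 30 of 1111 aligned positions differed (97.3%). Of all 50-base windows of the Il22 transcript, 41.0% occur unchanged in Iltifb, as do 20.4% of 100-base windows. Iltifb did not exceed 0.405 CPM in any library, where CPM is the counts-per-million value of the table, reads of a gene relative to all counted reads of its library. The sources used here do not say how shared reads were treated, so the level of Il22 is uncertain, and Il22 below means the reads counted to that gene name.

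The libraries held 16 to 47.1 M counted reads (median 25.4 M). Library profiles within a group correlated at 0.988 or more on average, except in the late cultures without cytokines. There the 72 h libraries of courses 1, 2 and 3 reached 0.945, 0.970 and 0.972, and the 48 h libraries 0.973, 0.982 and 0.985. Results against these cultures are therefore also given without course 1. Summed over 6 CD4 T cell markers, every library held between 1092 and 4639 CPM. Between 24 and 72 h, 8 B cell markers summed to 12.4 to 30.1 CPM with IL6 and TGFb, against 120 to 517 CPM without cytokines, most of it Ighm, while Pax5 averaged under 1 CPM in both. Over the same times 2 CD8 T cell markers summed to 2.20 to 6.29 CPM with IL6 and TGFb, against 10.9 to 44.0 CPM without. Most of that sum was Cd8b1, at a mean of 3.85 CPM with IL6 and TGFb and 22.7 CPM without. Cd8a averaged under 1 CPM in both. Another 10 myeloid markers, led by Cd74, summed to 9.93 to 53.7 CPM with IL6 and TGFb, against 33.0 to 224 CPM without. Another 9 markers of NK cells, innate lymphoid cells and gamma-delta T cells summed to 4.89 to 26.8 CPM with IL6 and TGFb, against 3.85 to 50.3 CPM without, with Ncr1 under 1 CPM in both. Klrd1, the highest of these with IL6 and TGFb, had 20.3 ± 2.96 CPM with them at 72 h, against 0.232 ± 0.125 CPM without. At 72 h 2 of the 9 were called higher with IL6 and TGFb and 2 lower. Without cytokines the highest over 24 to 72 h was Nkg7, at a mean of 5.81 CPM, against under 1 CPM with IL6 and TGFb. The part of these markers in the results below was not tested. In bulk RNA, fewer cells that express a gene and less RNA per cell cannot be told apart.

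All 3 genes were near 0 in naive cells and reached their highest means at 48 or 72 h, Il10 with IL21 and the others with IL1b added to IL6 and TGFb. Il10 peaked with IL21 at 48 h, at 63.2 ± 14.5 CPM (SD, n = 3, as for each group mean below). Il22 peaked with IL1b at 72 h, at 27.6 ± 16.8 CPM, and Il24 in the same cultures, at 61.2 ± 21.4 CPM. CPM is not corrected for gene length, so levels are compared between genes only as a percent of each gene's own highest mean. On that scale the IL21 cultures at 72 h stood at 72.1% for Il10, 10.8% for Il22 and 19.8% for Il24. The cultures with both additions at 72 h stood at 64.2%, 76.4% and 66.5% for the same genes, and those with IL6 and TGFb alone at 43.9%, 13.1% and 13.2%.

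**Figure D1:**
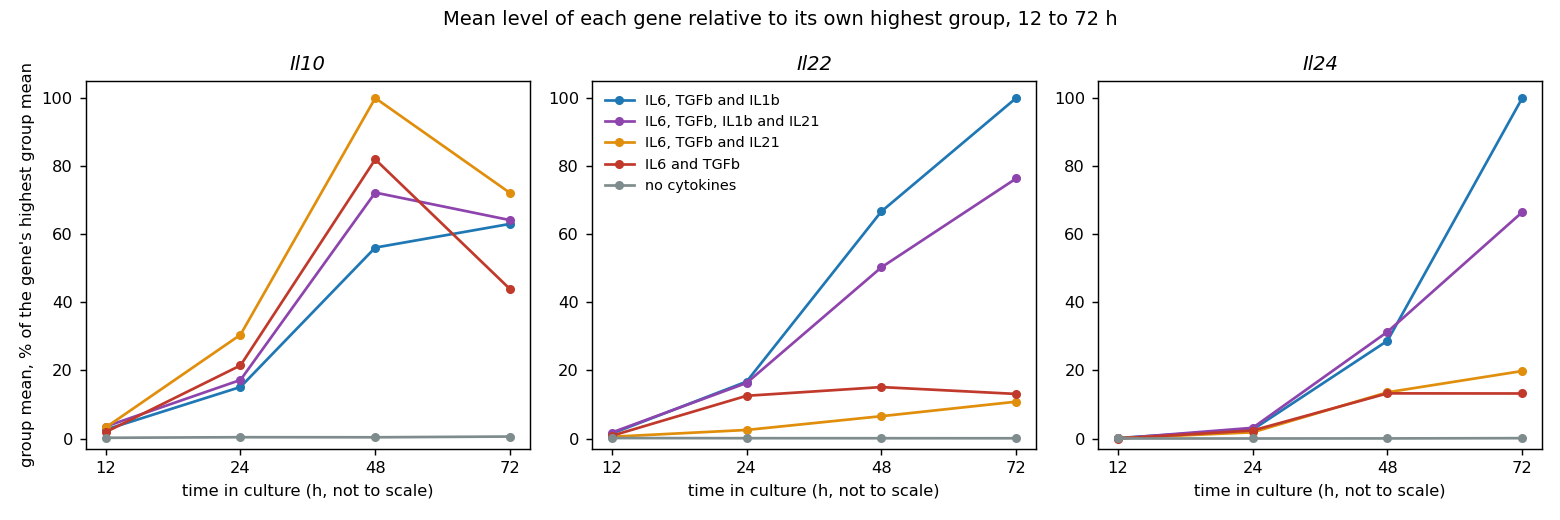
Mean level of each gene (percent of its own highest group mean, vertical axis) against hours of culture, 1 panel per gene and 1 line per condition, each point the mean of 3 libraries. Il22 and Il24 reach 100% with IL1b at 72 h, where IL21 cultures stand at 10.8% and 19.8%, and Il10 reaches 100% with IL21 at 48 h.

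Ordered by mean, the 8 highest groups for Il10 were all 48 or 72 h cultures with cytokines, and each overlapped the next in its libraries. The IL21 cultures at 24 h followed, and did not overlap those with IL6 and TGFb at 24 h. For Il22 the 4 highest groups were the IL1b and the IL1b with IL21 cultures at 72 and 48 h. These 4 overlapped each other in order, and the fourth did not overlap the fifth, IL1b at 24 h. For Il24 the IL1b cultures at 72 h and those with both additions at 72 h overlapped and stood clear of the next group, both additions at 48 h. Every 24 h cytokine group then followed without overlap with the 48 and 72 h groups, and all remaining groups averaged at most 0.122 CPM for Il24.

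A small early wave of Il10 and Il22 preceded the late levels. The question here was whether the cytokines acted in the first hours, and differences were tested with limma on log2 of scaled CPM plus 0.5, with Benjamini-Hochberg adjusted p-values over all genes tested and calls below 0.05. The added 0.5 CPM makes these log2 differences smaller than the ratio of reads for low genes. Il10 had 0.163, 0.248 and 0.0380 CPM in the naive cells of courses 1, 2 and 3. Without cytokines it had 0.346, 0.742 and 0.725 CPM at 0.5 h, 0.569, 0.619 and 1.15 CPM at 1 h, and 0.569, 0.908 and 1.21 CPM at 2 h. All 9 of these libraries were above all 3 naive ones. How many of all genes separate groups without overlap was not counted, here or below.

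Il10 without cytokines was called higher than in naive cells at 0.5, 1 and 2 h, with log2 differences of 0.79, 1.08 and 1.23 (adjusted p = 0.031, 0.00079 and 0.0001). At 4 h the log2 difference was 0.40 (adjusted p = 0.18). The call at 0.5 h was lost without course 2 or course 3, and the call at 1 h without course 3 (0.67, adjusted p = 0.079). Il22 was called at 4 h alone among these times, with 0.321, 0.334 and 0.402 CPM at 4 h and 0.0408, 0.186 and 0 CPM in naive cells (log2 difference 0.62 ± 0.24 (SE), adjusted p = 0.020). That call was lost without course 1 (adjusted p = 0.050) or course 2 (adjusted p = 0.069). Of all genes tested, 23.1%, 57.3%, 69.2% and 72.8% were called between 0.5, 1, 2 and 4 h and 0 h, so 1 of 3 members called at each of these times was below the share of all genes at 1, 2 and 4 h.

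IL6 and TGFb added to the early level of Il22. At 1 h Il22 had 0.287, 0.702 and 1.11 CPM with IL6 and TGFb, against 0.0814, 0 and 0.0821 CPM without cytokines. At 2 h it had 0.242, 0.566 and 1.19 CPM with IL6 and TGFb, against 0, 0 and 0.232 CPM without. The groups did not overlap at either time, and course 3 was the highest with IL6 and TGFb at both. The log2 difference was 1.16 ± 0.24 at 1 h (adjusted p = 0.00053) and 1.04 at 2 h (adjusted p = 0.0017). Summed reads, scaled to depth, were 12.8 times those without cytokines at 1 h (95% exact interval 4.74 to 48.8, counting error only) and 8.23 times at 2 h (3.27 to 26.6). Both calls were lost without course 2 (1.04, adjusted p = 0.16 at 1 h, and 0.97, adjusted p = 0.17 at 2 h).

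For Il10 at 1 h the levels were 1.11, 1.55 and 1.87 CPM with IL6 and TGFb, against 0.569, 0.619 and 1.15 CPM without cytokines. The groups overlapped by 1 library, and the log2 difference of 0.71 ± 0.27 (95% interval 0.16 to 1.26) was not called (adjusted p = 0.12). Same-numbered libraries deviated together at 1 h, and with course as a block among these 6 libraries alone the difference was called (0.70, adjusted p = 0.023). At 2 h the log2 difference of Il10 was 0.37 (adjusted p = 0.47), and no member was called at 0.5, 4 or 6 h. Il22 at 4 h had 0.0799, 0.115 and 0.752 CPM with IL6 and TGFb, against 0.321, 0.334 and 0.402 CPM without (log2 difference -0.17), so its groups overlapped there. Of all genes tested, 0.606%, 7.96%, 12.4%, 4.4% and 4.61% were called at 0.5, 1, 2, 4 and 6 h, beside 0, 1, 1, 0 and 0 of the 3 members.

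Against naive cells, IL6 and TGFb cultures at 1 h were higher for Il10 by 1.79 and for Il22 by 1.13 on the log2 scale (adjusted p = 3.4e-07 and 8.9e-05), where 56.6% of all genes were called. At 2 h the log2 differences were 1.60 and 1.06 (adjusted p = 1.3e-06 and 0.00013), where 70.6% were called. The early wave was also present in the cultures with added cytokines. At 2 h Il10 had 1.36, 1.57 and 2.28 CPM with IL1b and IL21, 0.611, 1.20 and 1.76 CPM with IL1b, and 0.646, 1.43 and 1.65 CPM with IL21, against 0, 0.0718 and 0.282 CPM in the naive cells of courses 4 to 6. Il22 at 2 h had 0.827, 1.25 and 1.19 CPM with IL1b and IL21, 0.448, 1.03 and 0.913 CPM with IL1b, and 0.798, 0.861 and 0.974 CPM with IL21, against 0.0373, 0 and 0.0469 CPM in naive cells.

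No 2 h library of these cultures overlapped the naive ones for either gene. Log2 differences between 2 and 0 h were 2.10 for Il10 and 1.79 for Il22 with both additions, 1.60 and 1.41 with IL1b, and 1.66 and 1.54 with IL21 (adjusted p at most 4.2e-05). Il24 was not called in any of these 3 comparisons, in which 73.9%, 73% and 72.5% of all genes were called. Between 0.5 and 12 h, Il24 stayed at or below 0.0870 CPM in all 18 libraries with IL6 and TGFb, 10 of them at 0, and at or below 0.0953 CPM in all 18 without cytokines, 9 of them at 0. Across IL1b cultures the highest Il24 value up to 12 h was 0.326 CPM, and in naive cells it was 0.282 CPM.

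At 12 h, between the early wave and the late levels, Il10 had 1.15, 0.756 and 1.69 CPM with IL6 and TGFb, against 0.116, 0.319 and 0 CPM without cytokines. The groups did not overlap (log2 difference 1.37 ± 0.27, adjusted p = 0.00025), and the call was lost without course 3 (1.02, adjusted p = 0.056). Il22 had 0.115, 0.294 and 0.274 CPM with IL6 and TGFb and was not called (0.41, adjusted p = 0.43), and Il24 had no read with IL6 and TGFb, which allows up to 0.0398 CPM over the 3 libraries by counting error. At 12 h 9.52% of all genes were called, beside 1 of the 3 members. Against naive cells, Il10 with IL6 and TGFb was higher by 1.34 at 12 h (adjusted p = 2.7e-05) and Il22 by 0.34 (adjusted p = 0.21), where 72.6% of all genes were called.

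From 24 h all 3 genes were higher with IL6 and TGFb than without cytokines, with no overlap of libraries at 24, 48 or 72 h. The share of all genes that separate in this way was not counted. Il10 with IL6 and TGFb had 15.6, 8.93 and 16.2 CPM at 24 h, 41.5, 57.9 and 55.9 CPM at 48 h, and 19.2, 36.7 and 27.3 CPM at 72 h. Without cytokines it had 0.256, 0.314 and 0.185 CPM, 0.360, 0.183 and 0.179 CPM, and 0.197, 0.276 and 0.659 CPM at the same times. The log2 differences were 4.12 ± 0.27 at 24 h, 6.14 at 48 h and 4.98 at 72 h (adjusted p = 1.9e-16, 1.2e-22 and 1.1e-19). Summed reads, scaled to depth, were 53.4 times those without cytokines at 24 h (33.6 to 90.5), 216 times at 48 h (136 to 365) and 70.2 times at 72 h (49.4 to 104).

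Il22 was likewise called at each of the 3 times. It had 3.52, 3.64 and 3.25 CPM at 24 h, 3.30, 4.98 and 4.25 CPM at 48 h, and 4.06, 3.91 and 2.89 CPM at 72 h with IL6 and TGFb, and no library without cytokines exceeded 0.0927 CPM at these times. The log2 differences were 2.81 ± 0.24, 3.09 and 2.91 (adjusted p = 5.7e-13, 1.6e-14 and 8.8e-14). Each value without cytokines rests on 2 reads in 3 libraries, so the ratios of 122 at 24 h (33.5 to 1013), 156 at 48 h (42.9 to 1294) and 145 at 72 h (39.7 to 1198) are wide.

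Il24 came up last. With IL6 and TGFb it had 1.68, 1.20 and 1.48 CPM at 24 h, 6.94, 10.7 and 6.78 CPM at 48 h, and 7.78, 11.7 and 4.88 CPM at 72 h, against at most 0.104 CPM in any library without cytokines at these times. The log2 differences were 1.84 ± 0.16, 3.96 and 3.78 (adjusted p = 8.4e-13, 4.1e-24 and 1.3e-23). Summed reads, scaled to depth, were 102 times those without cytokines at 24 h (18 to 4075), 300.4 times at 48 h (82.8 to 2485) and 107 times at 72 h (48.8 to 292), on 1, 2 and 6 reads without cytokines. Of all genes tested, 26.2%, 53% and 46.3% were called at 24, 48 and 72 h, beside 3 of 3 members at each time. Without course 1 all 9 calls held, with log2 differences at 72 h of 5.13 for Il10, 2.90 for Il22 and 3.84 for Il24.

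**Figure D2:**
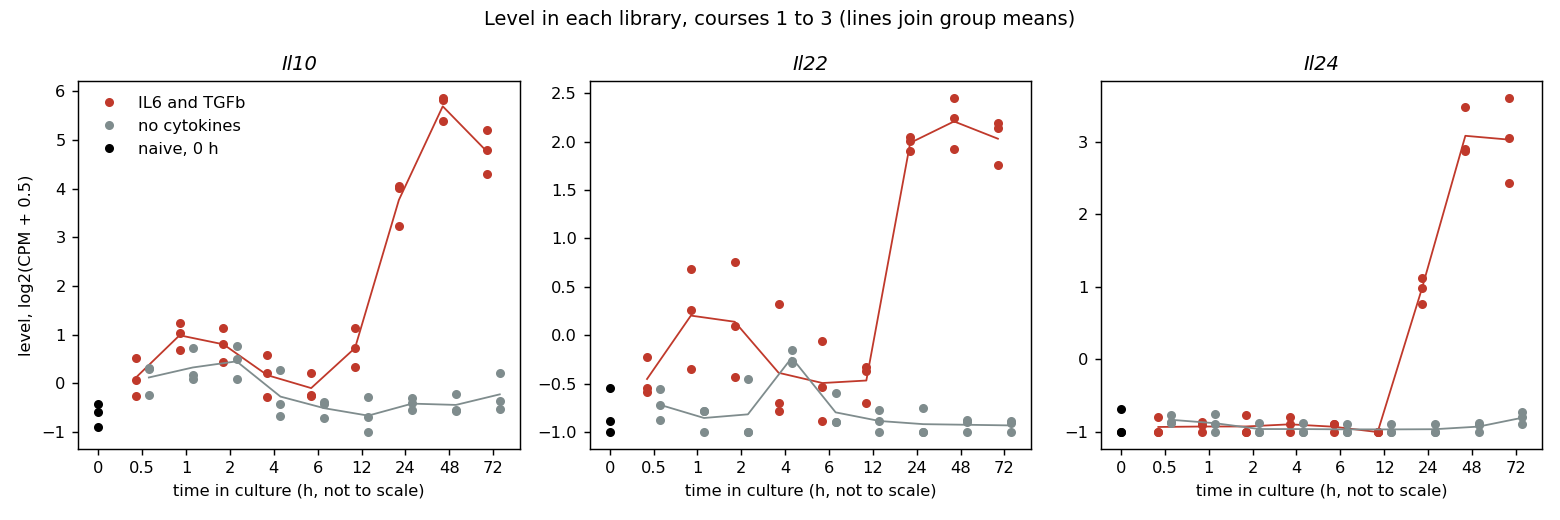
Level of each gene (CPM, log scale) against hours of culture with IL6 and TGFb and without cytokines, each point 1 library, with lines for the group means. From 24 h every library with IL6 and TGFb lies above every library without cytokines, for example 4.88 to 11.7 CPM against at most 0.104 CPM for Il24 at 72 h.

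The change of the IL6 and TGFb difference between 24 and 72 h was tested gene by gene, and not between the genes. For Il24 it was larger at 72 h by 1.95 ± 0.23 on the log2 scale (adjusted p = 5.1e-09), and without course 1 by 2.00 (adjusted p = 3.9e-05), but edgeR on the recovered reads did not call it (0.50, adjusted p = 0.97). The read ratios of Il24 were 102 at 24 h and 107 at 72 h, with wide intervals, so the growth was seen on the scale with 0.5 CPM added and not in the ratio of reads. For Il22 the change was 0.10 ± 0.34 (95% interval -0.59 to 0.78, adjusted p = 0.89). For Il10 it was 0.86 ± 0.39 (0.09 to 1.64), which did not pass the threshold (adjusted p = 0.11), nor without course 1 (1.09, adjusted p = 0.064). Among all genes 21.6% were called for this change, beside 1 of 3 members.

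**Figure D3:**
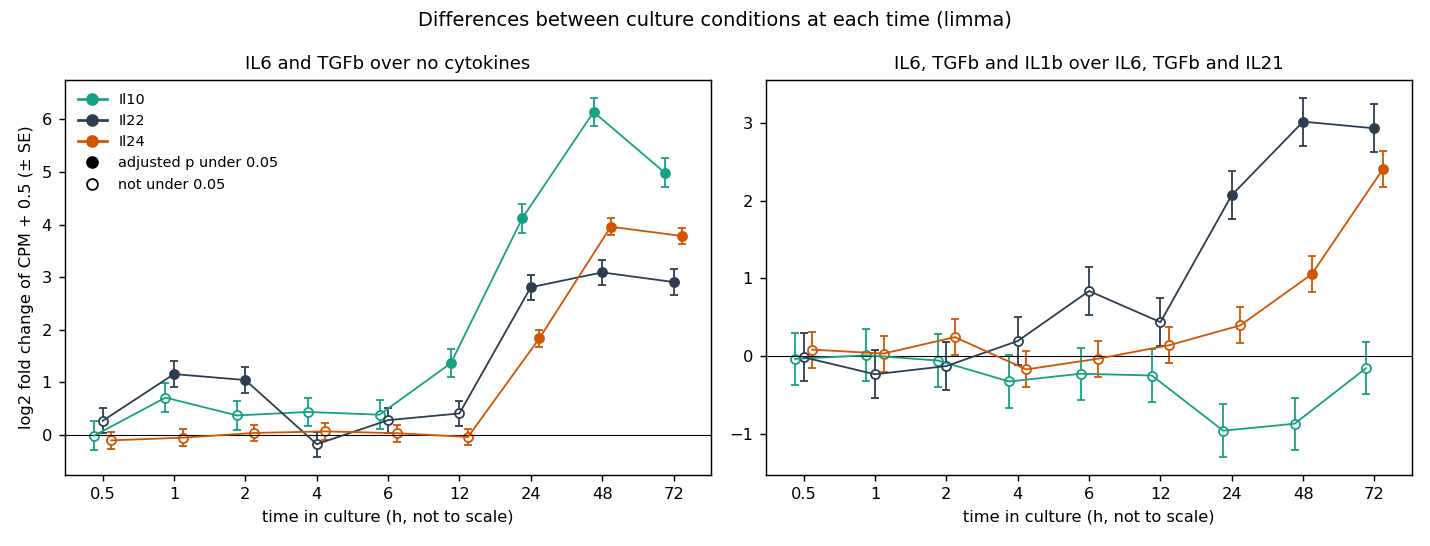
Log2 difference of each gene (vertical axis, with SE bars) against hours of culture. The panels show IL6 and TGFb over no cytokines, and IL1b over IL21 on top of IL6 and TGFb. At 72 h the IL1b over IL21 difference is 2.93 for Il22 and 2.41 for Il24 and -0.16 for Il10.

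The second set of courses compared additions to IL6 and TGFb with each other. It held no culture with IL6 and TGFb alone. Between IL1b and IL21 cultures, a higher level with 1 and a lower level with the other therefore cannot be told apart. With IL1b, IL6 and TGFb, Il22 had 3.90, 3.93 and 6.03 CPM at 24 h, 11.6, 16.7 and 27 CPM at 48 h, and 17.5, 18.4 and 47 CPM at 72 h. With IL21, IL6 and TGFb, it had 0.454, 0.706 and 0.934 CPM, 0.776, 2.04 and 2.63 CPM, and 2.12, 2.21 and 4.64 CPM at the same times. The groups did not overlap at any of these times, and course 6 was the highest in both conditions at each time. The log2 differences were 2.07 ± 0.31 at 24 h, 3.02 at 48 h and 2.93 at 72 h (adjusted p = 1.9e-05, 5.3e-11 and 5e-11). Within courses 4, 5 and 6 the ratio of CPM with IL1b to CPM with IL21 was 8.59, 5.57 and 6.46 at 24 h. It was 14.9, 8.16 and 10.3 at 48 h, and by 72 h 8.23, 8.34 and 10.1.

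Il22 with IL1b or with both additions also did not overlap the IL21 cultures at 6 h, before the late levels. It had 0.830, 0.651 and 0.630 CPM with IL1b and 0.409, 0.745 and 0.881 CPM with both additions. With IL21 it had 0.161, 0.167 and 0.162 CPM, on 4, 5 and 4 reads. Neither difference passed the threshold (0.84 ± 0.31, 95% interval 0.22 to 1.45, and 0.79, both adjusted p = 1). Limma called 0% of all genes in either comparison, with 220 genes for IL1b and 140 for both additions at an unadjusted p below 0.05, and edgeR called 0 in each. The same groups did not overlap at 12 h. Il22 then had 0.225, 0.286 and 0.694 CPM with IL1b and 0.256, 0.512 and 0.706 CPM with both additions. With IL21 it had 0.111, 0.141 and 0.190 CPM.

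Il24 followed the order of Il22 later in the cultures. With IL1b it had 1.56, 1.70 and 1.58 CPM at 24 h, 22.5, 15.2 and 15.1 CPM at 48 h, and 60.1, 40.4 and 83.2 CPM at 72 h. With IL21 it had 0.949, 0.962 and 1.46 CPM, 10.6, 4.99 and 9.43 CPM, and 10.4, 5.68 and 20.3 CPM. The groups did not overlap at any of the 3 times. The log2 difference was 0.39 at 24 h (adjusted p = 1), 1.05 ± 0.23 at 48 h (adjusted p = 0.0028) and 2.41 at 72 h (adjusted p = 1.9e-12), and it was larger at 72 than at 24 h by 2.01 ± 0.33 (adjusted p = 3.2e-05). That growth was called for 1.27% of all genes, and not for Il22 (0.86, adjusted p = 0.56) or Il10 (0.80, adjusted p = 0.67). It was not called with an added 0.1 CPM in place of 0.5 (1.95, adjusted p = 0.072), by edgeR (1.80, adjusted p = 0.13) or when fitted on these libraries alone (1.99, adjusted p = 0.20).

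Il10 was not called between these cultures at any single time. It had 11.6, 8.42 and 8.67 CPM with IL1b, against 23.5, 17 and 17.3 CPM with IL21 at 24 h, a ratio of 0.495, 0.496 and 0.500 within courses 4, 5 and 6. At 48 h it had 49.2, 25.7 and 31.4 CPM with IL1b, against 71.8, 46.5 and 71.2 CPM with IL21, and at 72 h 52.6, 20.5 and 46.3 CPM with IL1b, against 58.2, 21.5 and 56.9 CPM with IL21. The groups did not overlap at 24 h and overlapped at 48 and 72 h, with course 5 the lowest at 72 h in both. The log2 differences were -0.96 (adjusted p = 0.58), -0.87 (adjusted p = 0.23) and -0.16 ± 0.34 (95% interval -0.83 to 0.51, adjusted p = 0.86), none called. Same-numbered libraries deviated together at 24 h, and with course as a block among these 6 libraries alone the 24 h difference was called (-0.96, adjusted p = 4.5e-13), as it was on them without the block (-0.96, adjusted p = 0.0048).

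Of all genes tested, 0.242%, 2.44% and 9.88% were called for IL1b against IL21 at 24, 48 and 72 h, beside 1, 2 and 2 of the 3 members. The Il22 call at 24 h was lost without course 5 (2.17, adjusted p = 0.056), and the Il24 call at 48 h without course 4 (1.04, adjusted p = 0.092) or course 5 (0.88, adjusted p = 0.062), with 0.1 CPM added (1.09, adjusted p = 0.15) and by edgeR (1.07, adjusted p = 0.050). When the 6 compared libraries were fitted alone, the calls of Il22 at 48 h (3.05, adjusted p = 0.060) and 72 h (2.93, adjusted p = 0.063) and of Il24 at 48 h (1.08, adjusted p = 0.39) and 72 h (2.40, adjusted p = 0.094) were lost. Over the mean of 24, 48 and 72 h, with 9 libraries per condition, Il22 was higher with IL1b than with IL21 by 2.67 ± 0.18 (adjusted p = 3.5e-19) and Il24 by 1.28 ± 0.13 (adjusted p = 2.3e-11), while Il10 was lower by this measure, at -0.66 ± 0.19 (adjusted p = 0.016). In this comparison 11.4% of all genes were called, beside 3 of 3 members. The Il10 call was lost without course 6 (-0.60, adjusted p = 0.32), with an added 0.1 CPM (-0.68, adjusted p = 0.064) and on these libraries alone (-0.65, adjusted p = 0.083).

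With IL1b and IL21 together, Il22 and Il24 stood near the IL1b cultures. Il22 had 4.08, 4.15 and 5.30 CPM at 24 h, 8.15, 18.5 and 15 CPM at 48 h, and 9.45, 19.3 and 34.6 CPM at 72 h. Il24 had 2.10, 2.01 and 1.69 CPM, 22.3, 12.4 and 22.9 CPM, and 34.1, 38.0 and 50 CPM. Every one of these libraries was above every IL21 library of the same time. Against IL21, the log2 differences of Il22 were 2.07, 2.67 and 2.53 (adjusted p = 1.6e-05, 3.5e-09 and 8.6e-09), and those of Il24 were 0.60, 1.19 and 1.87 (adjusted p = 0.88, 0.00063 and 1.1e-08).

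Il10 with both additions had 12.6, 9.63 and 10.4 CPM at 24 h, below every IL21 library, 55.0, 25.2 and 56.7 CPM at 48 h, and 55.0, 18.4 and 48.1 CPM at 72 h. Its log2 differences from IL21 were -0.77, -0.51 and -0.16, none called (adjusted p = 1, 1 and 0.91). Within courses 4, 5 and 6 the ratio at 24 h was 0.537, 0.568 and 0.598. On the 6 compared libraries alone the 24 h difference was called (-0.77, adjusted p = 0.0083), and with course as a block among them so were those at 24 h (-0.77, adjusted p = 6.1e-06) and 48 h (-0.52, adjusted p = 0.0045). Same-numbered libraries did not all deviate together in this comparison (lowest correlations 0.0056 at 24 h and 0.0999 at 48 h). By the rule used here they were not taken as paired, so these block calls lack that basis. Of all genes tested, 0.202%, 1.29% and 4.21% were called against IL21 at 24, 48 and 72 h, beside 1, 2 and 2 of 3 members. The Il22 call at 24 h was lost without course 5 (2.14, adjusted p = 0.055), and the Il24 call at 48 h without course 4 (1.23, adjusted p = 0.051) and with 0.1 CPM added (1.23, adjusted p = 0.13). On the 6 compared libraries alone, the calls of Il22 at 48 and 72 h (adjusted p = 0.12 and 0.24) and of Il24 at 48 and 72 h (adjusted p = 0.52 and 0.31) were lost. Over the 3 times together the log2 differences from IL21 were 2.42 ± 0.18 for Il22, 1.22 ± 0.13 for Il24 and -0.48 ± 0.19 for Il10 (adjusted p = 3.5e-17, 1.5e-10 and 0.14), where 6.78% of all genes were called.

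Between both additions and IL1b alone no member was called. At 72 h the log2 difference was -0.53 ± 0.23 for Il24 (95% interval -1.0 to -0.07), -0.40 for Il22 (-1.02 to 0.21) and -0.00 for Il10 (-0.68 to 0.67), each with adjusted p = 1. The CPM of Il24 with both additions was 0.568, 0.941 and 0.601 of that with IL1b in courses 4, 5 and 6, below 1 in 3 of 3. Over the 3 times the differences were -0.06 (-0.33 to 0.20) for Il24, -0.25 (-0.61 to 0.11) for Il22 and 0.19 (-0.20 to 0.57) for Il10. Limma called 0% of all genes in both comparisons, with 209 genes at 72 h and 213 over the 3 times at an unadjusted p below 0.05, and edgeR called 0.

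**Figure D4:**
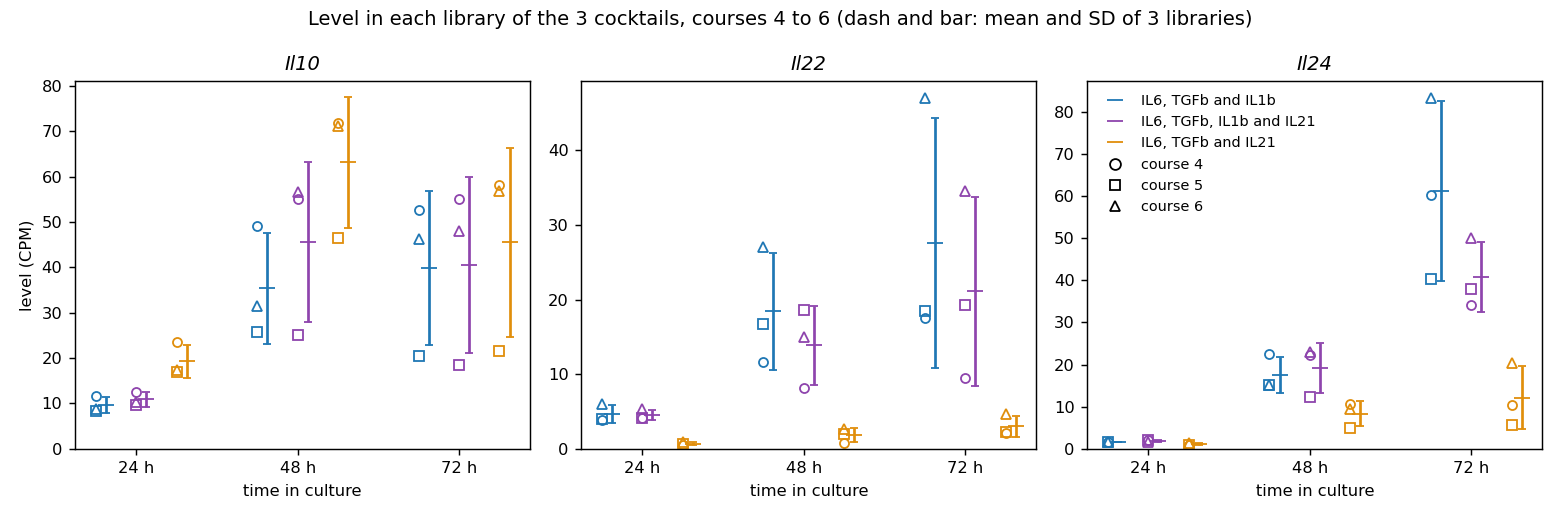
CPM of each gene against hours of culture in courses 4 to 6 with IL1b, with IL1b and IL21, or with IL21 on top of IL6 and TGFb, each point 1 library, with the group means marked. At 72 h Il22 lies at 17.5 to 47 CPM with IL1b and 9.45 to 34.6 CPM with both, against 2.12 to 4.64 CPM with IL21, while the Il10 libraries overlap.

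The additions were compared with IL6 and TGFb alone across the sets of courses, after the log2 level of each set's own naive cells was subtracted. The members were near 0 in both naive groups. The naive cells of courses 1 to 3 held 9 reads of Il10, 4 of Il22 and 2 of Il24. Those of courses 4 to 6 held 8, 2 and 6. Subtracting such levels cannot remove a set difference that arises later in culture. The set and the addition therefore cannot be told apart in this comparison. With IL1b at 48 h, Il22 was higher by 2.02 ± 0.41 (adjusted p = 0.0020), Il24 by 0.93 (adjusted p = 0.15) and Il10 was at -0.53, and 0.535% of all genes were called. With IL1b at 72 h Il22 was higher by 2.70 and Il24 by 2.72 ± 0.29 (adjusted p = 8.1e-07 and 3.3e-12), Il10 was at 0.51 (adjusted p = 0.72), and 2.36% of all genes were called.

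With both additions Il22 was higher by 1.68 at 48 h (adjusted p = 0.028) and by 2.30 at 72 h (adjusted p = 5.5e-05). Il24 was at 1.07 at 48 h (adjusted p = 0.071) and higher by 2.19 at 72 h (adjusted p = 2e-08), with 0.45% and 1.44% of all genes called. With IL21 no member was called at 48 or 72 h, where limma called 0.00652% and 0.013% of all genes. Its log2 differences at 72 h were 0.67 for Il10, -0.22 for Il22 and 0.32 for Il24, and Il22 at 48 h was at -0.99 ± 0.41 (adjusted p = 1). The Il22 call for both additions at 48 h was lost when course 1, 2, 3, 5 or 6 was left out, and also by edgeR, with 0.1 CPM added and on the compared libraries alone. The Il22 call for IL1b at 48 h was lost with 0.1 CPM added (2.34, adjusted p = 0.080) and by edgeR (3.17, adjusted p = 0.85), and edgeR called neither Il22 nor Il24 at 72 h with IL1b or with both additions, with log2 differences between 1.03 and 3.95 (adjusted p between 0.36 and 0.95).

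From 48 to 72 h the genes parted within conditions. With IL6 and TGFb, Il10 was lower at 72 h in all 3 libraries, 19.2, 36.7 and 27.3 CPM against 41.5, 57.9 and 55.9 CPM at 48 h (log2 difference -0.93 ± 0.27, adjusted p = 0.0054), a call lost with 0.1 CPM added (-0.94, adjusted p = 0.095). Il22 (-0.19, adjusted p = 0.59) and Il24 (-0.06, adjusted p = 0.81) were not called there. Il24 was higher at 72 than at 48 h with IL1b, by 1.73 ± 0.23 (adjusted p = 3.3e-09), and with both additions, by 1.06 (adjusted p = 0.0001), but was not called with IL21 (0.37, adjusted p = 0.19). For Il22 the step was 0.49 with IL1b, 0.44 with both additions and 0.58 with IL21, none called, and for Il10 it was 0.10, -0.26 and -0.61, none called.

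The calls in these steps stood beside 38.9% of all genes with IL6 and TGFb, 51.2% with IL1b, 48.1% with both additions and 49% with IL21. Same-numbered libraries deviated together in the IL1b and the IL21 steps. With course as a block among the libraries compared, Il22 was called with IL1b (0.42, adjusted p = 0.019) and with IL21 (0.57, adjusted p = 0.037), and Il10 with IL21 (-0.63, adjusted p = 0.0037).

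The receptors for these cytokines were measured in the same cells. Of 7 family receptor chains, 3 passed the filter and were tested, and 1 was called lower with IL6 and TGFb at 24 h and 1 at 72 h, against 26.2% and 46.3% of all genes called in either direction. Il10rb, the chain shared by the IL-10 and IL-22 receptors, had 9.93 ± 1.48 CPM with IL6 and TGFb and 24.7 ± 3.29 CPM without cytokines at 72 h (log2 difference -1.18 ± 0.15, adjusted p = 6.2e-09). Il10ra, the IL-10 binding chain, was lower at 24 h, 0.821 CPM with IL6 and TGFb against 9.40 CPM without (-2.78), and was not called at 72 h, where it had 32.5, 16.2 and 21.1 CPM with IL6 and TGFb and 4.76, 46.4 and 48.5 CPM without, the low value being course 1. Il20rb, a chain for IL-24, averaged 1.92 ± 0.225 CPM with IL6 and TGFb and 2.19 ± 0.657 CPM without cytokines at 72 h and was not called. Il22ra1 had a mean of 0 in both. Il10rb was the 1 chain called over the 3 times between both additions and IL21, by 0.29, and none was called between IL1b and IL21. Of the 5 other family cytokines in the table, Il19, Il20, Iltifb, Ifnl2 and Ifnl3, none passed the filter of 1 CPM in 3 libraries, and Il19 did not exceed 0.243 CPM.

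Among 20 transcription factors linked to Il10, Il22 or T helper subsets, 13 were higher and 2 lower with IL6 and TGFb at 72 h (median log2 difference 1.89, against -0.05 over all genes), where 46.3% of all genes were called. Maf had 614 ± 16.2 CPM with IL6 and TGFb, against 7.19 ± 3.92 CPM without cytokines (6.52 ± 0.31, adjusted p = 4.3e-22). Ahr had 360 ± 11.4 CPM with IL6 and TGFb, against 7.77 ± 4.57 CPM without (5.67). Rora, a nuclear receptor, and Nfil3, a basic leucine zipper factor, were higher by 3.54 and 3.52. At 24 h 12 factors were higher and 2 lower, beside 26.2% of all genes called, and Gata3, the Th2 factor, had 2.24 ± 0.871 CPM with IL6 and TGFb, against 21.3 ± 4.35 CPM without (-2.97). Of 5 targets of Ahr, 4 were higher at 24 h, led by Cyp1b1 at 87.6 ± 2.26 CPM with IL6 and TGFb, against 0.427 ± 0.517 CPM without, and 4 were higher and 1 lower at 72 h.

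Over 24 to 72 h, IL1b against IL21 called 1 factor higher and 6 lower of 20, where 11.4% of all genes were called. That share is also the background for the other lists compared between IL1b and IL21 below. Each SD given for 24 to 72 h is over the 9 libraries of all these times, so it includes the change with time. Maf averaged 476 ± 147 CPM with IL1b and 707 ± 146 CPM with IL21 (-0.61, adjusted p = 0.00087, n = 9 libraries each), Ahr 303 ± 69.4 CPM with IL1b and 404 ± 50.8 CPM with IL21 (-0.44, adjusted p = 0.0005), and Tbx21, the Th1 factor, 3.36 ± 1.89 CPM with IL1b and 7.91 ± 4.41 CPM with IL21 (-1.11). Batf, an AP-1 family factor, was the one higher, at 154 ± 50.4 CPM with IL1b and 107 ± 47.1 CPM with IL21 (0.57). Among 5 Ahr targets 0 were higher and 1 was lower, Cyp1a1 (-0.67), beside the same 11.4%. Among 9 genes of cytokine receptor signalling 2 were higher and 1 lower, with Stat5a at 454 ± 117 CPM with IL1b and 263 ± 96.6 CPM with IL21 (0.83, adjusted p = 2.5e-13).

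The receptors for the inducing cytokines were measured in the same libraries. Of 9 such chains, 6 were higher and 1 lower with IL6 and TGFb at 24 h, beside 26.2% of all genes. Il1r1, the receptor for IL1b, had 113 ± 9.94 CPM with IL6 and TGFb, against 0.573 ± 0.146 CPM without cytokines (6.69 ± 0.30), and at 72 h Il23r had 62.7 ± 5.04 CPM with IL6 and TGFb, against 0.189 ± 0.0799 CPM without (6.50). Between IL1b and IL21 over 24 to 72 h 0 were higher and 5 lower, beside 11.4% of all genes, among them Il6st, the signalling chain for IL6 (-0.62), Tgfbr1 (-0.57) and Il1r1, at 68.1 ± 26.9 CPM with IL1b and 90.2 ± 24.1 CPM with IL21 (-0.47, adjusted p = 0.017).

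Of 8 effector genes of Th17 cells, 7 were higher and 1 lower with IL6 and TGFb at 72 h (46.3% of all genes called), and 4 were higher and 1 lower with IL1b than with IL21 over 24 to 72 h (11.4%), among them Il17a (1.05) and Il9 (1.96). Of 12 genes of Tr1 and regulatory T cells 4 were higher and 5 lower with IL6 and TGFb at 72 h, and 2 were higher and 4 lower with IL1b than with IL21, beside the same shares. Of 7 mast cell and basophil markers, 6 averaged under 1 CPM in all cultures of courses 4 to 6 between 24 and 72 h, and Fcer1a had no read with IL1b. The other, Kit, averaged 6.10 CPM with IL1b and 1.62 CPM with IL21, so that the summed list ran from 4.66 to 8.02 CPM with IL1b, against 0.701 to 2.33 CPM with IL21. Its part in the result was not tested.

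The genes next to the members were looked at in the same libraries. On chromosome 1, Mapkapk2, a kinase gene that follows Il10, had 396 CPM with IL6 and TGFb and 167 CPM without cytokines at 72 h (1.37, adjusted p = 8.2e-11), and 602 CPM with IL1b and 373 CPM with IL21 (0.71, adjusted p = 3.9e-06). Fcmr, an IgM receptor gene beside Il24, had 2.75 CPM with IL6 and TGFb and 0.680 CPM without cytokines (1.53, adjusted p = 2.3e-05). Between these, Il20 had no read at 72 h in either condition and Il19 averaged 0.0303 CPM with IL6 and TGFb and 0.0940 CPM without cytokines. On chromosome 10, Ifng, the Th1 cytokine gene past Il22 and Iltifb, averaged 0.112 CPM with IL6 and TGFb and 0.361 CPM without cytokines (-0.31, adjusted p = 0.48), and was not called between IL1b and IL21 (0.05, adjusted p = 0.94). Mdm1, on the other side of Il22, was at -0.73 (adjusted p = 0.00051) with IL6 and TGFb. Past Mapkapk2 on chromosome 1, Dyrk3 was higher with IL6 and TGFb at 72 h (0.92, adjusted p = 0.0004). Eif2d (-0.18, adjusted p = 0.22) and Rassf5 (-0.21, adjusted p = 0.092) were not called. Between IL1b and IL21, Rassf5 was lower (-0.40, adjusted p = 0.00021), and Dyrk3 and Eif2d were not called. Of all genes, 46.3% were called with IL6 and TGFb and 9.88% between IL1b and IL21 at 72 h.

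By Pearson correlation of log2 group means over all 47 groups, among 10403 genes, the genes most like Il10 were Stard8 (0.971), Peli2 (0.969), Ctla2a (0.968), Rnf152 (0.965) and Il23r (0.962). Those most like Il24 were Gja5 (0.983), Procr (0.979), Casr (0.978), Il17a (0.978) and Cysltr1 (0.972). For Il22 they were Il24 (0.897), Mt2 (0.892), Il17a (0.890), Timd2 (0.888) and Tpbg (0.886). Il10 correlated with Il24 at 0.914 and with Il22 at 0.854. The groups share libraries' courses and the rise with time, so these values describe likeness in these data alone.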

How the data were processed

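RNA-seq of mouse CD4 T cells gave 1 table of 46517 genes by 141 libraries. Its values are CPM, deposited by the authors. TopHat, HTSeq, mm9 and GRCh37 are named in the submitters' processing notes without settings, roles or versions, which leaves the treatment of strand and of shared reads unknown. CPM values were whole multiples of 1 read in 100% of cases (tolerance 0.001 reads), which gave the 16 to 47.1 M counted reads per library. Intervals on read ratios cover counting error only.

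Genes with at least 1 CPM in 3 libraries were tested with limma 3.58.1 (trend) in R 4.3.3 on log2(CPM scaled by TMM factors of edgeR 4.0.16 + 0.5). Courses 1 to 3 (57 libraries, 14695 genes), courses 4 to 6 (84 libraries, 14859 genes) and all 141 libraries (15328 genes, for the comparison across sets) were each fitted with 1 mean per group. P-values were adjusted (Benjamini-Hochberg) over all genes in each of 110 comparisons, with no further adjustment over comparisons. The script was tested on simulated data. Alternatives were no TMM scaling, no filter, 0.1 or 1 CPM added, the compared libraries alone, edgeR's quasi-likelihood test on recovered reads, course as a block, and leaving out each course. Course as a block on the compared libraries alone was added after seeing the data.

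Course numbers come from the sample titles. They were taken to pair libraries where the deviations of every same-course pair correlated above 0.1, which held for IL6 and TGFb against no cytokines at 0.5, 1, 2, 4 and 12 h (lowest correlations 0.126, 0.388, 0.405, 0.234 and 0.306) and not at 6, 24, 48 or 72 h. It also held for IL1b against IL21 at 0.5, 1, 4, 24 and 72 h.

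The members and lists were chosen with earlier results of these data known. Genes named from a list are up to 5 called genes with the largest log2 difference and a group mean of at least 5 CPM, with a few receptors, neighbours and markers named after their values were seen. Genes of like pattern are the 5 with the highest correlation of log2 group means, clone and predicted symbols passed over. Sequences are from GENCODE M21 transcripts (GRCm38), and gene order is from RefSeq, whose build differs from mm9, so no coordinates are given.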

Additional observations from a re-analysis of the deposited data

Results flagged for a closer look

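For Il24 the difference between IL6 with TGFb and no cytokines was larger at 72 than at 24 h by 1.95 on the log2 scale, by a test of that change itself. The read ratios were 102 at 24 h and 107 at 72 h, and edgeR did not call the change (0.50, adjusted p = 0.97), so it rests on the scale with 0.5 CPM added. The Il24 difference between IL1b and IL21 cultures was likewise larger at 72 than at 24 h, by 2.01.

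The remaining 6 results set a change since 0 h with an addition against the change since 0 h with IL6 and TGFb alone, and each of these differences passed the limma test. EdgeR called none of the 6, and the set of courses and the addition cannot be told apart in them. With IL1b, Il22 differed by 2.02 at 48 h and 2.70 at 72 h, and Il24 by 2.72 at 72 h. With both IL1b and IL21, Il22 differed by 1.68 at 48 h and 2.30 at 72 h, and Il24 by 2.19 at 72 h.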

How the results depend on the processing

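Of 1355 alternative values for 129 results on Il10, Il22 and Il24, 1289 kept their side of the threshold, 48 lost the call and 18 gained it. The sign changed in 39, each for a difference not called under either setting. Without TMM scaling all 129 stayed the same, although the median log2 difference of all genes with IL6 and TGFb moved to -0.15 at 48 h and -0.13 at 72 h, and the share of called genes that were higher fell to 38% at both times, against 52% and 49%. EdgeR did not call the 72 h differences from IL6 and TGFb alone of Il22 (3.95, adjusted p = 0.36) and Il24 (1.60, adjusted p = 0.84) with IL1b, or of Il22 (3.58, adjusted p = 0.55) and Il24 (1.03, adjusted p = 0.95) with both additions. Nor did it call the growth from 24 to 72 h of the Il24 difference with IL6 and TGFb (0.50, adjusted p = 0.97) or of that between IL1b and IL21 (1.80, adjusted p = 0.13). The Il24 growth between IL1b and IL21 was 1.95 (adjusted p = 0.072) with 0.1 CPM added and 1.99 (adjusted p = 0.20) on the compared libraries alone. The mean Il10 difference between IL1b and IL21 was -0.68 (adjusted p = 0.064) and -0.65 (adjusted p = 0.083) under the same alternatives, and ran from -0.72 to -0.60 when 1 course was left out. With 1 CPM added, the growth of the Il10 difference with IL6 and TGFb was called (0.90, adjusted p = 0.022). The cause of these changes was not tested.

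With course as a replicate block in the whole set, 2 results gained a call: the Il22 step from 48 to 72 h with IL21 (0.58, adjusted p = 0.042) and the Il24 difference of both additions from IL6 and TGFb at 48 h (1.07, adjusted p = 0.029). With the block on the compared libraries alone, 10 gained a call, among them the mean Il10 difference between both additions and IL21 (-0.48, adjusted p = 0.029), and no other call changed. For that mean difference the libraries did not pass the rule for pairing (lowest correlation -0.143). Counts of all genes called moved by over 1.5 times in 129 of 441 alternatives, and 16 of 24 without course 2. At 72 h, 6803 genes were called with IL6 and TGFb, against 3866 without course 2 and 1117 with the block on the compared libraries alone. For the IL1b and IL21 growth 189 genes were called, against 29 on the compared libraries alone. Depth limits the ratios for Il22 and Il24 without cytokines, which rest on a few reads.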

Other observations

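Il10 in course 5 was the lowest of its group at 72 h with each addition, at 20.5 CPM with IL1b, 18.4 CPM with both additions and 21.5 CPM with IL21, while the libraries of courses 4 and 6 stood between 46.3 and 58.2 CPM. Il24 was also lowest in course 5 with IL1b (40.4 CPM) and with IL21 (5.68 CPM), but not with both additions (38.0 CPM). Il22 did not share that order: course 6 was the highest in all 3 conditions at 72 h, at 47, 34.6 and 4.64 CPM. These are 1 library each and were looked at after their values were seen.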
